A study of Mus musculus with 20 samples.

Results

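The genes described here encode the proteins of the cytoplasmic ribosome. A gene was taken as a member when its only symbol begins with Rpl or Rps followed by a digit, or is Rplp0, Rplp1, Rplp2 or Rpsa. S6 kinases and symbols of pseudogenes were left out, and where a symbol had several probe sets, the one that averaged highest on the 20 arrays stood for it. This gave 63 members among 19938 genes, and 62 of them were kept among 15272 genes after the filter on low values, which asks for a value over the 40th percentile of the array on at least 2 arrays. The member that was not kept, the muscle copy Rpl3l, lay over that percentile on 0 arrays. Of the 62, 25 carry an Rps symbol or are Rpsa (small subunit), 34 carry an Rpl symbol (large subunit) and 3 form the stalk of the large subunit. The letters of the rule also admit genes that are not r-proteins. Rps19bp1 encodes a partner of Rps19 that regulates Sirt1, and Rps23rg1 is a retroposed gene derived from Rps23.

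The mRNAs were read from Affymetrix arrays hybridised with RNA of 4 fibroblast lines, all derived from E14.5 mouse embryos (mouse embryonic fibroblasts, MEFs). They were iMEFs, which carry the SV40 T antigens, and primary MEFs, each as Ubf fl/fl/Er-cre+/+ cells and as Ubf wt/wt/Er-cre+/+ controls. All 4 lines carry the ER-Cre recombinase, and all received 50 nM 4-hydroxytamoxifen (4-HT) for 4 h, which removes the floxed exons of the gene for the rRNA transcription factor UBF in fl/fl cells. RNA was taken 0, 24, 48, 72 and 96 h post 4-HT (pHT), with 1 array for each line and time, so no condition has a replicate and a line stands for its genotype and cell type alone.

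Cells make r-proteins in near equal numbers, because each ribosome takes up 1 copy of nearly every one of them, and copies that find no rRNA to bind are degraded. Their mRNAs are among the most abundant of a growing cell and begin with a run of pyrimidines, the 5′ terminal oligopyrimidine (TOP) tract, through which mTOR and Larp1 control their translation. Some members also act away from the ribosome: Rpl5 and Rpl11 bind 5S rRNA in a particle that restrains Mdm2, the ubiquitin ligase of p53, when ribosome assembly fails. The arrays measure mRNA, and neither translation nor protein.

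The annotated starts of 8 members are shown because these members stood on either side of the difference between iMEFs and MEFs described below. Each stretch holds 15 bases before and 15 bases from the start that RefSeq lists first (build GRCm38.p6), and capitals mark a run of a C and at least 5 further pyrimidines lying within 25 bases of that start. A run can continue past the printed stretch, as at the left edge of Rpl4, Rpl5 and Rpl13, and that of Rpl23 lies outside it. Rpl4, Rpl5, Rpl23 and Rps4x were lower in iMEFs, and Rpl12, Rpl13, Rplp0 and Rpsa were higher.
Rpl4 (chr9:64173372-64173401, plus strand): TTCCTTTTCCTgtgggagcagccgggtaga
Rpl5 (chr5:107900513-107900542, plus strand): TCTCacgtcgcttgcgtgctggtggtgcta
Rpl23 (chr11:97782425-97782454, minus strand): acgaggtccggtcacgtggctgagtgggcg
Rps4x (chrX:102189377-102189406, minus strand): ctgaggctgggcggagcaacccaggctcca
Rpl12 (chr2:32961697-32961726, plus strand): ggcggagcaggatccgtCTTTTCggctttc
Rpl13 (chr8:123102335-123102364, plus strand): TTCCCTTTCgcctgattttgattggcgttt
Rplp0 (chr5:115559452-115559481, plus strand): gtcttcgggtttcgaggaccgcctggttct
Rpsa (chr9:120127751-120127780, plus strand): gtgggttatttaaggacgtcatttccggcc

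Both sets hold members with the run and members without it. A start was listed for 50 of the 62 members. A pyrimidine run of this kind lay within 25 bases of it in 29 members (58%), against 9455 of 27025 symbols (35%) in the whole table. Of the members called lower in iMEFs 6 of 10 with a listed start had the run, and of those called higher 4 of 8. The core motif of ETS factors, CCGGAAG on either strand, lay between 250 bases before and 50 bases after the start in 18 of 50 members (36%) and in 9.12% of all symbols. It was found in 3 of the 10 and in 3 of the 8. A match in letters is a description of these windows and no evidence of a used site, and the annotated start need not be the one used in these cells.

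As a family the members varied little. The median SD of a member over the 20 arrays was 0.176 on the log2 scale, against 0.336 over all genes, and 49 of the 62 members had an SD under the median of all genes. The SD of single members ran from 0.0523 for Rpl28 to 0.913 for Rpl39l. On all 20 arrays 33 members lay over the 95th percentile of the probe sets, a range in which RMA values are compressed. The median of the members, each set against its own mean over the 20 arrays, stayed between -0.101 (wt/wt iMEFs at 72 h) and 0.083 (fl/fl iMEFs at 24 h). The correlation of a member with the median of the other members over the 20 arrays had a median of 0.24, with 12 members over 0.5 and 8 under 0. Within lines, after each line's mean was taken off, the median was 0.44 and 7 members lay under 0. These arrays share lines and scaling, so the values describe the arrays only.

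**Figure D1:**
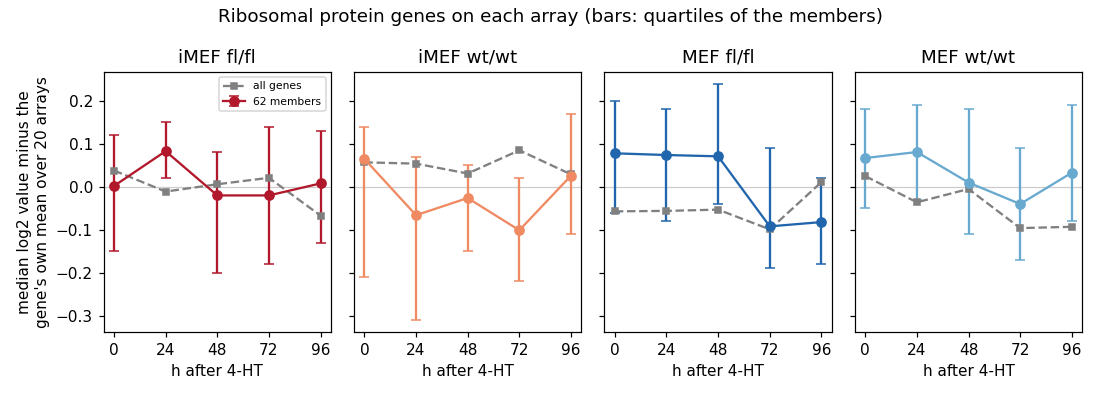
Median over the 62 members (circles) and over all 15272 genes (squares) of the log2 value minus the gene's own mean over the 20 arrays, in each of the 4 lines by time after 4-HT. Bars span the quartiles of the members. The member medians stay between -0.101 and 0.083.

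Facts of the series that touch these values are as follows. The arrays that lay farthest from their line's mean over all genes were fl/fl iMEFs at 24 h (SD 0.374), fl/fl MEFs at 96 h (0.361) and fl/fl iMEFs at 96 h (0.340), against 0.141 to 0.306 on all others. The Ubtf probe set, which measures the targeted gene, read 10.01 to 10.42 in fl/fl iMEFs at 48 to 96 h, against 9.49 to 10.33 in wt/wt iMEFs. In MEFs it read 10.53 to 10.65 in fl/fl cells, against 10.22 to 10.46 in wt/wt cells. The probe set thus gave no lower values in fl/fl cells. Which exons the probes cover is not given in the sources used here, so the probe set does not check the labels. Of 10 fibroblast markers, 8 lay over the 40th percentile on all arrays of both iMEF lines and 10 on those of both MEF lines. Of 19 measured macrophage markers 5 and 8 lay over it on all arrays of fl/fl and wt/wt iMEFs, against 19 and 18 in fl/fl and wt/wt MEFs.

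As late effect of Ubf loss served the fl/fl minus wt/wt difference at 48, 72 and 96 h pHT, from which the same difference at 0 and 24 h was subtracted. It addresses whether mRNAs of r-proteins changed once rRNA synthesis had stopped. In iMEFs no member was called higher or lower. In limma with Benjamini-Hochberg adjustment over all genes 0 of 62 passed an adjusted p of 0.05, beside 34 of 15272 genes (0.223%). At an unadjusted p under 0.05 there were 8 members and 3370 genes. The median over the members was -0.055, against -0.035 over all genes, with 20 members above 0 and 42 below. Scaling each array to 1 median turned the members' median to 0.12 and that of all genes to 0.14, so no direction can be given for the family. The small-subunit genes had a median of -0.045, the large-subunit genes -0.122 and the 3 stalk genes -0.022. In primary MEFs 0 of 62 members and 0 of 15272 genes (0%) passed, with 1 member and 1052 genes at an unadjusted p under 0.05. The members' median was -0.027, against 0.061 over all genes, and quantile normalization gave -0.067 and 0.03, whereas median scaling turned the members' median to 0.007 (0.095 over all genes). The difference of the late effect between the cell types passed for 0 of 62 members and 0 genes (0%), with 1 member and 1136 genes at an unadjusted p under 0.05. The standard error had a median of 0.207 over all genes and 0.172 over the members in either cell type. Simulated data used the spreads of all 15272 genes around their line means, which include any change with time. Changes were given to genes drawn from all of these. For the late effect in iMEFs limma called 17 of 100 genes given a log2 change of 1 and 83 of 100 given one of 2. These shares were not measured for the members alone. Smaller changes of a single member could still go uncalled.

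Relative to 0 h, the fl/fl minus wt/wt difference of the members in iMEFs had a median of 0.178 at 24 h, -0.044 at 48 h, 0.047 at 72 h and -0.057 at 96 h. At 24 h 49 of 62 members lay above 0, and at 96 h 23 did. With arrays scaled to 1 median the 24 h value was 0.047. In MEFs the medians were -0.017, 0.022, -0.045 and -0.131, and at 96 h 46 of 62 members lay below 0, while the median of all genes was 0.203 (0.055 for the members after median scaling). A difference over 0.5 in size was seen at 96 h for 8 members (12.9%) and for 47.7% of all genes in MEFs. In iMEFs the members past 0.5 numbered 9 at 24 h (14.5%, against 21.3% of all genes) and 6 at 48 h (9.68%, against 17.6%). They numbered 8 at 72 h (12.9%, against 19%) and 4 at 96 h (6.45%, against 19.1%).

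Single members departed from the family. A member was taken to depart when its value lay farther from the members' median than 3 times their scaled median absolute deviation. In iMEFs that limit was 0.561, and Rpl7, Rpl5, Rps15a and Rpl14 lay past it, 4 of 62 members (16.8% of all genes lay as far out). Because the members were picked by these values, the following describes them and tests nothing. In primary MEFs the limit was 0.355, and Rpl26, Rpl7, Rpl5 and Rpl4 lay past it, again 4 members, all below the family, while 22.4% of all genes lay as far out. In the same late effect in MEFs 18 of 19 macrophage markers lay above 0 (median 0.577, highest 1.45) and 0 passed, and their part in these values was not tested.

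**Figure D2:**
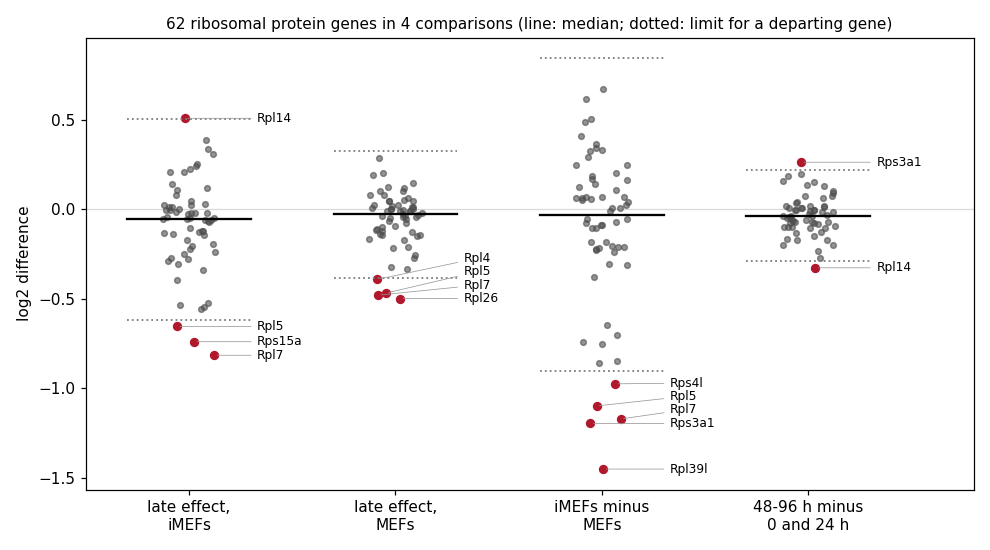
Log2 differences of the 62 members (points) in the late effect of Ubf loss in iMEFs and in MEFs, in iMEFs minus MEFs, and in the late minus the early times over the 4 lines. Solid lines are the members' medians, dotted lines the limit of 3 scaled median absolute deviations, and red points with names the members past it, such as Rpl39l at -1.45 in iMEFs minus MEFs.

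Rpl7, a protein of the large subunit, had the lowest late effect in iMEFs. It read 9.74, 11.08, 9.65, 10.06 and 10.77 in fl/fl iMEFs at 0, 24, 48, 72 and 96 h, against 9.47, 9.40, 9.97, 9.75 and 10.30 in wt/wt iMEFs. The fl/fl line thus had 2 high arrays, at 24 and 96 h, and the other 3 lay in the range of the wt/wt line. The late effect was -0.81 (SE 0.38, adjusted p = 0.24), and it ran from -1.52 without the fl/fl array at 0 h to -0.11 without that at 24 h. With 24 h counted as late it was 0.27. In MEFs Rpl7 read 11.22, 11.20, 11.38, 11.19 and 10.78 in fl/fl cells, against 10.89, 11.10, 11.34, 11.35 and 11.45 in wt/wt cells. The value at 96 h in fl/fl cells was the lowest of the 10. The late effect there was -0.48 (SE 0.38, adjusted p = 0.744), and -0.27 without that array. The control lines rose: the mean of Rpl7 at 48 to 96 h differed from that at 0 and 24 h by 0.57 in wt/wt iMEFs, against -0.25 in fl/fl iMEFs. In MEFs these changes were 0.39 in wt/wt cells and -0.09 in fl/fl cells.

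Rpl5, the measured r-protein of the 5S particle, moved like Rpl7. In fl/fl iMEFs it read 10.77, 11.46, 10.45, 10.65 and 11.39 over the 5 times, against 10.38, 10.47, 10.90, 10.47 and 11.02 in wt/wt iMEFs. In fl/fl MEFs it read 11.97, 11.98, 12.08, 11.95 and 11.44, against 11.54, 11.88, 11.99, 12.08 and 12.03 in wt/wt MEFs. The same 3 fl/fl arrays stand out: 24 and 96 h in iMEFs are high, and 96 h in MEFs is low. The late effect was -0.65 (SE 0.29, adjusted p = 0.216) in iMEFs and -0.47 (SE 0.29, adjusted p = 0.718) in MEFs. Without the fl/fl array at 24 h the value in iMEFs was -0.36, and without that at 0 h -0.95. Without the fl/fl array at 96 h the value in MEFs was -0.28. From the early to the late times the mean of Rpl5 changed by 0.37 in wt/wt iMEFs and by -0.28 in fl/fl iMEFs. In MEFs these changes were 0.32 in wt/wt cells and -0.15 in fl/fl cells. The 5 probe sets of Rpl5 gave -0.73 to -0.45 in iMEFs. Rpl11, its partner in the particle, was not analysed here, because no probe set names it alone.

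Rpl26, which lies near the exit of the peptide tunnel, and Rpl4, whose loop lines that tunnel, lay low in both cell types, with late effects of -0.53 and -0.55 in iMEFs and -0.50 and -0.39 in MEFs. Without the fl/fl MEF array at 96 h that of Rpl4 in MEFs was -0.25. For Rpl26 most of the difference lay in the control lines. Its mean at 48 to 96 h differed from that at 0 and 24 h by -0.05 in fl/fl iMEFs, against 0.49 in wt/wt iMEFs. In MEFs these changes were -0.10 in fl/fl cells and 0.40 in wt/wt cells. Those of Rpl4 were -0.10 in fl/fl iMEFs against 0.46 in wt/wt iMEFs, and -0.17 in fl/fl MEFs against 0.22 in wt/wt MEFs. With the 96 h arrays left out, Rpl4 (-0.73, adjusted p = 0.0308) was among the 3 members that passed in iMEFs, beside 1663 of all genes.

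Rps15a, of the small subunit, read 8.52, 8.65, 8.26, 7.72 and 8.55 in fl/fl iMEFs, against 8.32, 7.92, 8.31, 8.52 and 8.52 in wt/wt iMEFs. A single low array in each line, at 72 h in fl/fl cells and at 24 h in wt/wt cells, made up most of its late effect of -0.74 (SE 0.27, adjusted p = 0.154). Without the 72 h arrays it was -0.47, and with 24 h left out also -0.47. In fl/fl MEFs Rps15a read 8.36 to 8.75, against 8.40 to 8.72 in wt/wt MEFs, and these ranges overlap.

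Rpl14, of the large subunit, was the only member past the limit on the upper side. It read 8.90, 8.92, 8.70, 8.69 and 9.07 in fl/fl iMEFs, against 9.23, 9.03, 8.32, 8.76 and 8.52 in wt/wt iMEFs. The fl/fl line spanned less than the control line, which was high at 0 h and low at 48 and 96 h. The late effect was 0.51 (SE 0.22, adjusted p = 0.213), and from fl/fl cells alone, without the control, it was -0.09. In MEFs the late effect was -0.01 (SE 0.22). The difference between the cell types, 0.51 (adjusted p = 0.758), did not pass.

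Rps27l, a copy of Rps27 whose gene is a target of p53, came nearest to the threshold in iMEFs. It read 11.80, 11.92, 11.60, 11.26 and 11.04 in fl/fl iMEFs, against 11.78, 11.63, 12, 11.73 and 11.33 in wt/wt iMEFs. The late arrays of fl/fl cells were the lowest at each of their times, and both iMEF lines ended low at 96 h. The late effect was -0.54 (SE 0.15, adjusted p = 0.0946), and -0.59 (adjusted p = 0.0406) without the 96 h arrays. In MEFs Rps27l read 12.18, 12.32, 12.45, 12.49 and 12.49 in fl/fl cells, against 12.11, 12.30, 12.37, 12.40 and 12.54 in wt/wt cells. These courses ran close together, and the late effect was -0.01 (SE 0.15). The test of the difference between cell types gave -0.53 (adjusted p = 0.654).

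**Figure D3:**
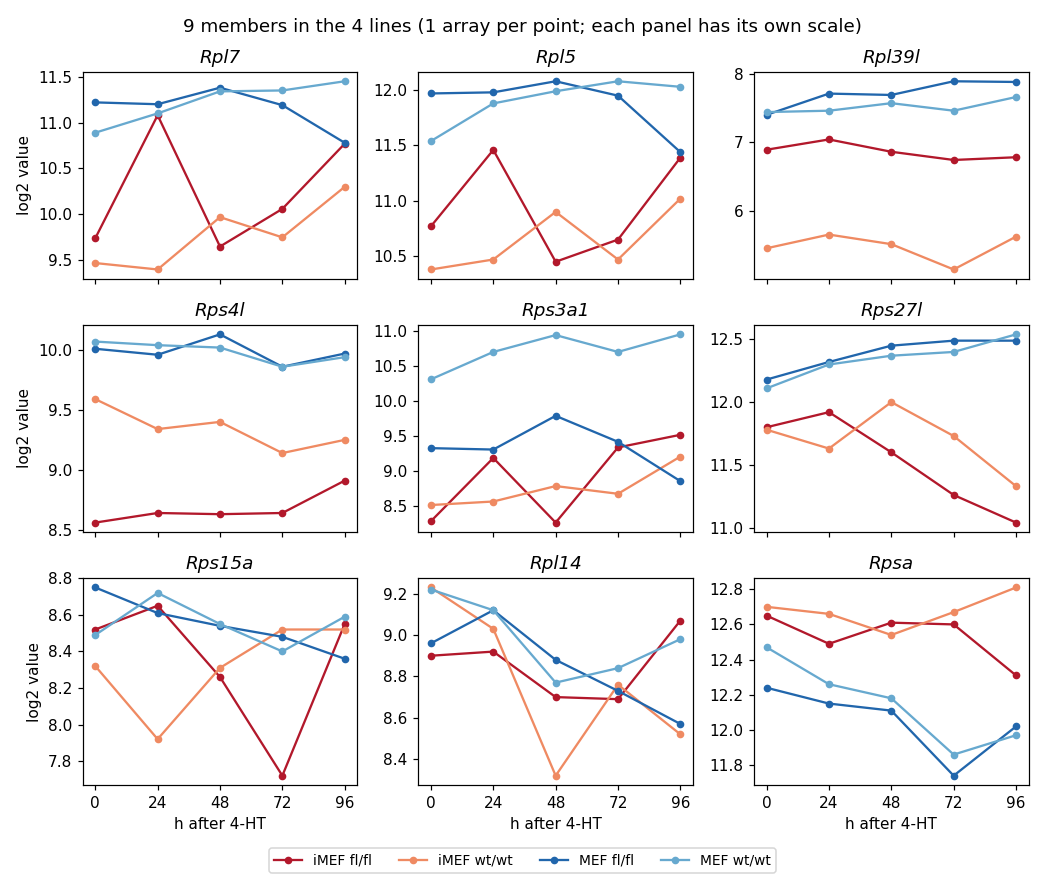
Log2 values of 9 members by time after 4-HT in fl/fl and wt/wt iMEFs and in fl/fl and wt/wt MEFs, 1 array per point, with a scale of its own for each gene. Rpl7 and Rpl5 are high in fl/fl iMEFs at 24 and 96 h, Rpl39l is near 5.5 in wt/wt iMEFs only, and Rps4l is lowest in fl/fl iMEFs.

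The comparison of iMEFs with primary MEFs used the mean of each line over its 5 times, with 2 lines of each kind. In iMEFs 11 members were higher and 13 lower than in MEFs. Together 24 of 62 members (38.7%) passed, which is a smaller share than the 66.3% of all genes. Higher in iMEFs were 35.1% of all genes and lower were 31.2%. The members' median was -0.029, against 0.116 over all genes. With arrays scaled to 1 median the split of calls was 24 higher and 10 lower and the members' median was 0.201 (0.346 over all genes). Of the called members 70.6% were then higher, against 67.9% of all called genes. After quantile normalization 13 were higher and 10 lower, which is 56.5% higher, against 59.4% of all called genes. A direction of the family as a whole is therefore not given. By the limit of 0.872, 5 members departed (24.2% of all genes lay as far out), and all 5 lay below. All 19 macrophage markers were lower in iMEFs (median -3.01), as were 9 of 10 fibroblast markers (median -0.77, lowest -5.71), and the part of either in these differences was not tested. In bulk RNA, fewer cells of a type and less RNA per cell cannot be told apart.

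Of the 13 lower members 8 carry an Rpl symbol. Rpl5 was 2.14-fold lower in iMEFs (-1.10, SE 0.13, adjusted p = 0.00228) and Rpl7 2.25-fold lower (-1.17, SE 0.18, adjusted p = 0.00466). Rps4x, the small-subunit protein encoded on the X chromosome, was 1.81-fold lower. It read 11.33, 12.09, 11.34, 11.36 and 11.70 in fl/fl iMEFs and 11.14, 11.16, 11.48, 11.30 and 11.49 in wt/wt iMEFs. In MEFs it read 12.33, 12.30, 12.39, 12.18 and 11.99 in fl/fl cells and 12.26, 12.34, 12.45, 12.35 and 12.36 in wt/wt cells. The fl/fl iMEF array at 24 h and the fl/fl MEF array at 96 h overlap, and all other iMEF arrays lie below all MEF arrays. Rpl23 (-0.85), which can bind Mdm2, Rpl4 (-0.74), Rpl36a (-0.70) and Rpl26 (-0.65) passed too, as did Rps20 (-0.38), Rpl22 (-0.31) and Rps12 (-0.31). Rpl4, Rpl5, Rpl7, Rpl23, Rpl26, Rpl36a and Rps4x passed, with this sign, in all 35 alternatives run, the removal of each array and each line among them. The other 17 of the 24 were lost in at least 1 of them. The share of all genes that passed in every alternative is not given here. The alternatives also reuse the same lines and most of the same arrays, so they are not independent of each other. These counts are therefore not read as a trait of the members.

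Over the 20 arrays 13 members followed Rpl7 with a correlation over 0.8, the highest of which were Rpl5 (0.98) and Rps4x, Rps20, Rpl4 and Rpl36a (0.97 each). Within lines, after each line's mean was taken off, these 5 had correlations of 0.86 to 0.94 with Rpl7. At the other end Rpsa had -0.81 and Rplp2 -0.86, and within lines -0.35 and -0.53. Not all of the 13 kept it within lines: Rpl39l had 0.81 over the arrays and 0.13 within lines. The points share lines, arrays and scaling, and no test was made. The share of all genes with such a correlation is not given here, so the count is not read as a trait of the members.

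The higher members were led by Rps14, of the small subunit (0.67, SE 0.08, adjusted p = 0.00277), whose probe sets gave 0.67 and 0.92. Rpl12, at the base of the stalk, was higher by 0.61, from 1 probe set that averaged 8.63. Its ranges overlap, since fl/fl iMEFs at 24 and 96 h (8.48 and 8.50) lay below fl/fl MEFs at 0 h (8.51). Leaving out a line gave 0.47 to 0.76. The stalk protein Rplp0 was higher by 0.29 and its partner Rplp2 by 0.37. Rplp2 rests on 1 probe set, which averaged 6.88 over the 20 arrays, against 13.09 for Rplp0 and 13.55 for Rplp1. How well that probe set measures its mRNA was not tested. Rpsa, the small-subunit protein also known as the laminin receptor precursor, was 1.42-fold higher (0.50, SE 0.10, adjusted p = 0.0101). It read 12.65, 12.49, 12.61, 12.60 and 12.31 in fl/fl iMEFs and 12.70, 12.66, 12.54, 12.67 and 12.81 in wt/wt iMEFs. In MEFs it read 12.24, 12.15, 12.11, 11.74 and 12.02 in fl/fl cells and 12.47, 12.26, 12.18, 11.86 and 11.97 in wt/wt cells. The ranges of iMEFs and MEFs overlap, since fl/fl iMEFs at 96 h lie below wt/wt MEFs at 0 h, and from 0 h alone the difference was 0.31 (adjusted p = 0.224). Rpl8 (0.49), Rpl36 (0.33), Rpl13 (0.33) and Rpl41 (0.25), the shortest r-protein, completed the core members, with Rps23rg1 at 0.34 beside them. With the values of 0 and 24 h alone 8 members passed, which were the 7 that passed in all alternatives and Rps3a1. Of the 11 higher members 0 did. How many of all genes passed at these times is not given here. The counts are therefore not read as a result about the members.

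**Figure D4:**
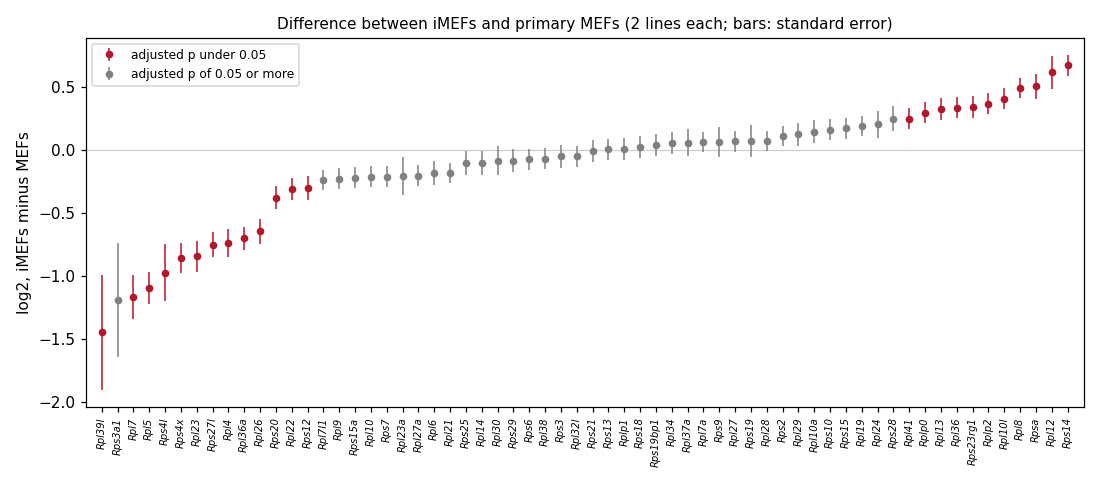
Log2 difference between iMEFs and primary MEFs for each of the 62 members, ordered by value, with bars of 1 standard error from the limma fit over 2 lines each. Red members have an adjusted p under 0.05. The lowest are Rpl39l at -1.45 and Rps3a1 at -1.19, and the highest is Rps14 at 0.67.

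Among the copies of core r-protein genes, Rpl39l and Rps4l differed between lines of 1 cell type. Rpl39l, a copy of Rpl39 best known from testis, was 2.73-fold lower in iMEFs (-1.45, SE 0.46, adjusted p = 0.0411). In fl/fl iMEFs it read 6.89, 7.04, 6.86, 6.74 and 6.78, against 5.45, 5.65, 5.51, 5.14 and 5.62 in wt/wt iMEFs. In MEFs it read 7.40 to 7.89 in fl/fl cells and 7.44 to 7.66 in wt/wt cells. The 3 levels do not overlap at any time. Rpl39l lay over the percentile of the filter on low values on 15 of the 20 arrays. The wt/wt iMEF arrays all lay under it. There Rpl39l read lower than Rpl3l, the member that was not kept, which read 5.96 to 6.17 in wt/wt iMEFs. The lowest level thus lies in the range that the filter treats as low, and the fold and the call rest partly on it. Without the wt/wt iMEF line the difference was -0.76, and without the fl/fl iMEF line -2.14, and the call was lost without the fl/fl MEF line. The 2 iMEF lines differed already at 0 h.

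Rps4l showed the opposite order of the iMEF lines. It is a copy of Rps4x that RefSeq lists as a transcribed pseudogene, and it read 8.56, 8.64, 8.63, 8.64 and 8.91 in fl/fl iMEFs, against 9.59, 9.34, 9.40, 9.14 and 9.25 in wt/wt iMEFs. In MEFs it read 9.86 to 10.13 in fl/fl cells and 9.86 to 10.07 in wt/wt cells. Each iMEF line lay below both MEF lines at all times, and the fl/fl line lay lowest. The difference between cell types was -0.97 (SE 0.23, adjusted p = 0.0181).

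Rps3a1, of the small subunit, departed by -1.19 (SE 0.45, adjusted p = 0.0672), which did not pass. The iMEF lines read 8.27 to 9.52 in fl/fl cells and 8.52 to 9.21 in wt/wt cells. In fl/fl MEFs it read 9.33, 9.31, 9.79, 9.42 and 8.86, against 10.31, 10.70, 10.94, 10.70 and 10.95 in wt/wt MEFs. The wt/wt MEF line stood alone, and without it the difference between cell types was -0.51. Without the fl/fl MEF line it was -1.88. The member rests on a single probe set listed with a cDNA accession outside RefSeq, and pseudogene copies of Rps3a1 could share its probes.

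Of the other copies, Rpl10l, an intronless copy of Rpl10 used in male germ cells, was higher in iMEFs by 0.41 (SE 0.08, adjusted p = 0.0125), while its core partner Rpl10 was at -0.21 (adjusted p = 0.0706). Rpl7l1, a relative of Rpl7 that acts in ribosome assembly, was at -0.24 (adjusted p = 0.0503). Among 6 measured core partners of copies (Rpl7, Rpl10, Rpl22, Rpl26, Rpl36a and Rps4x), 5 were lower in iMEFs and 0 higher, beside 31.2% and 35.1% of all genes.

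Time in culture was compared over the 4 lines as the mean at 48, 72 and 96 h minus that at 0 and 24 h. No member passed (0 of 62, and 0 of 15272 genes, 0%), with 4 members and 2374 genes at an unadjusted p under 0.05 in limma. The members' median was -0.036, against 0.004 over all genes, and -0.034 and -0.012 after median scaling and quantile normalization. Past the limit of 0.253 lay 2 members, Rpl14 at -0.33 (SE 0.11, adjusted p = 0.231) and Rps3a1 at 0.26 (SE 0.10, adjusted p = 0.263), while 19.1% of all genes lay as far out. Without the fl/fl iMEF array at 0 h the value of Rps3a1 was 0.15. Rps13 at -0.27 lay just inside. In all 4 lines the change of Rps13 had the same sign, with values of 11.37, 11.32, 11.16, 11.07 and 10.97 in fl/fl iMEFs over the 5 times and 11.34, 11.30, 11.05, 10.90 and 11.14 in wt/wt MEFs. Rpl14, Rpl7a and Rps21, among other members, also fell in all 4 lines.

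Several r-protein genes carry snoRNAs in their introns, which guide the modification of rRNA and are cut from the spliced intron of the host. In 11 pairs of a member and a snoRNA within its span, from 9 hosts, both were measured. In iMEFs the late effect of the snoRNA lay above that of its host in all 11 pairs, with medians of 1.53 for the snoRNAs and -0.12 for the hosts. Snord15a passed the threshold (1.61, SE 0.26, adjusted p = 0.0434), and its host Rps3 was at 0.01 (SE 0.15). Snord16a was at 1.28 (adjusted p = 0.0591) and its host Rpl4 at -0.55. Snora21 was at 1.81 (adjusted p = 0.0583) and its host Rpl23 at -0.13. The smallest gap was that of Snora52 (0.44, adjusted p = 0.160) and Rplp2 (0.02), whose probe set averaged only 6.88. In MEFs the medians were 0.22 for the snoRNAs and -0.04 for the hosts. No test was made of the difference within pairs.

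**Figure D5:**
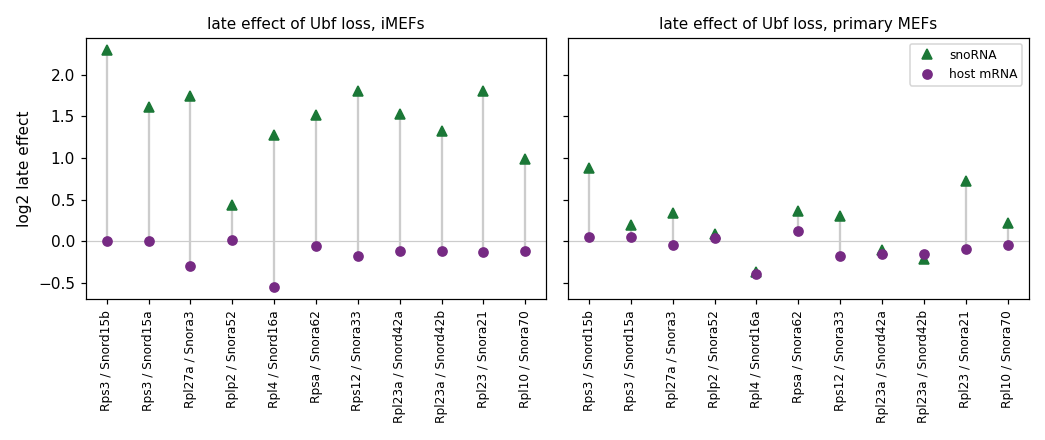
Late effect of Ubf loss (log2) for 11 snoRNAs (triangles) and the r-protein genes that hold them (circles), in iMEFs on the left and in primary MEFs on the right. In iMEFs the snoRNAs lie between 0.44 and 2.30 and the hosts between -0.55 and 0.02.

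Genes that share features with the members were set beside them. Of 16 other mRNAs with a TOP tract, 0 passed in the late effect of either cell type, and 14 lay below 0 in iMEFs and 12 in MEFs. Their medians were -0.182 in iMEFs and -0.059 in MEFs, against -0.035 and 0.061 over all genes. The share of all genes below 0 is not given. Median scaling turned the all-gene median in iMEFs to 0.14, so no direction is given for these mRNAs. In iMEFs minus MEFs 7 of the 16 were lower and 2 higher. Over all genes 31.2% were lower and 35.1% higher, against which the counts of these lists are to be read. Eif3m (-1.61), a subunit of initiation factor 3, and Npm1 (-1.92), a nucleolar chaperone, were the lowest, while Eif3k (0.37) and Eif3f (0.33), of the same initiation factor, were higher. Eef1a1, the elongation factor, was at -0.32 and Tpt1 at -0.46, and both passed. Of 13 chaperones and assembly factors of r-proteins 7 were lower and 4 higher. The Rpl3 chaperone Grwd1 was at 0.94 and Heatr3, which imports Rpl5 and Rpl11, at 0.82. Rrs1 and Rpf2, which place the 5S particle in the ribosome, were at -0.70 and -0.68. Of 10 regulators of TOP translation 4 were higher and 2 lower, among them Rptor, a subunit of the mTOR complex, at 0.39 and Rheb, which activates mTOR, at -1.33.

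What a probe set measures limits these values. The 63 members have 219 probe sets with their symbol alone, up to 14 for 1 gene, and r-protein genes have many processed pseudogenes whose sequences share probes with the parent. Of 38 members with more than 1 distinct series of values, 35 had 1 sign of the difference between cell types on all their probe sets, with a median range of 0.105 and the widest range, 0.42, for Rpl5. A further 32 symbols that match the rule in RefSeq have no probe set of their own and were not analysed here, Rpl3, Rpl11 and Rps24 among them.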

How the data were processed

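The authors deposited log2 values for every probe set on each array, made by RMA-sketch normalization of all 20 arrays together in Affymetrix Power Tools 1.14.4, as the submitters' processing notes and methods give it. Probe sets were named from the annotation of the 1.0 ST array, although the study states 2.0 ST. Of 35556 probe sets 21789 carry 1 symbol, 1621 several and 12146 are not listed in that annotation. Only probe sets with 1 symbol were used. The depth of arrays is fixed, and their number limits the precision.

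The members, gene lists and comparisons were chosen with earlier results of these data known. Named members are those past the adjusted threshold or past 3 scaled median absolute deviations from the members' median, the copies with their core partners, Rpl5, and hosts of measured snoRNAs. Rps13 and the genes named from other lists for the size of their values were chosen after these were seen.

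All fits were made in R 4.3.3 with limma 3.58.1 (lmFit, eBayes) over 15272 genes, with Benjamini-Hochberg adjustment and a threshold of 0.05. The late effect was fitted with line, with cell type by time, and with late time in fl/fl cells as terms (6 residual degrees of freedom), so its error is the scatter between times. At 24 h the exons are already excised by the study's account. iMEFs minus MEFs was fitted on 4 line means (2 degrees of freedom), and the change with time on 4 line differences (3). p-values measure only the spread between these lines or times. The tests were checked on simulated data. Alternatives were 2 further scalings, 2 filters, other probe sets, other empirical Bayes settings, other early and late times, and arrays or lines left out, of which single arrays, lines of the cell type comparison, RefSeq probe sets and the family without copies were added after the data were seen. Sequences come from RefSeq. Some items are not reported here. Of all probe sets, 701 repeat the values of another one exactly. Figures were drawn with Python 3.11.15 and matplotlib 3.10.9.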

Additional observations from a re-analysis of the deposited data

How the results depend on the processing

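The number of members called was 0 under all alternatives for the late effect in MEFs, for its difference between cell types and for the change with time. For the late effect in iMEFs it was 3 without the 96 h arrays and 0 otherwise. For iMEFs minus MEFs it was 24, and it fell to 8 with 0 and 24 h only and to 9 with 0 h only. Leaving out single arrays or lines gave 12 to 29, with 12 without either MEF line and at least 21 whichever array was left out. The number over all genes moved with the setting too. It was 10131 beside the 24 members, and 11632 beside 34 members with median scaling. These changes in count are therefore not read as a result about the members. The family median followed the scaling. Median scaling gave 0.12 for the late effect in iMEFs (main value -0.055), 0.105 for its difference between cell types (-0.035) and 0.201 for iMEFs minus MEFs (-0.029), and relative to 0 h 0.047 for iMEFs at 24 h (0.178) and 0.055 for MEFs at 96 h (-0.131). It gave 0.007 for the late effect in MEFs (-0.027). Quantile normalization gave 0.088 for iMEFs minus MEFs and -0.012 for the change with time (-0.036). For iMEFs minus MEFs no filter gave -0.007, the 60th percentile -0.052, the family without copies -0.001, and arrays or lines left out -0.059 to -0.012. The change with time was -0.004 in the wt/wt lines only, -0.014 without the 72 h arrays and -0.052 to -0.019 with arrays or lines left out. With 24 h counted as late the family median was 0.065 in iMEFs and 0.117 for the difference between cell types, and signs turned for Rpl7 (0.27) and Rps4x (0.07) in iMEFs and for Rps14 (-0.19) and Rps15a (0.10) in that difference. Rpl14 in iMEFs was -0.09 in fl/fl cells alone. The causes were not tested. Of single members in iMEFs minus MEFs, Rps3a1 passed in limma with 0 h only (-1.42, adjusted p = 0.0123) and with 0 and 24 h only (-1.27, adjusted p = 0.0478).

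The labels give no replicate numbers, and the late effect already sets fl/fl against wt/wt arrays of the same time. In simulated data a log2 change of 1 was given to 100 genes drawn from all 15272, not from the members. Of these, limma recovered 17 in the late effect in iMEFs and 16 in that in MEFs. It recovered 27 in iMEFs minus MEFs and 92 in the change with time. Line, genotype and cell type cannot be told apart where 1 line stands for both.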

Other observations

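Probe sets that list several symbols, at least 1 of them an r-protein gene, were left out of the comparisons since no single gene can be credited with their values. There are 239 of them, with 234 distinct series of values, and they hold 20 of the 32 r-protein symbols that have no probe set of their own. Their late effect in iMEFs ran from -0.81 to 1.66 with a median of -0.181, and 26 of the 234 lay above 0. In MEFs the median was -0.071, with 23 above 0. The medians over all genes were -0.035 in iMEFs and 0.061 in MEFs, and the share of all genes above 0 is not given. Median scaling turned the all-gene median in iMEFs to 0.14. No other scaling is given for these probe sets, so no direction is read from their counts. In iMEFs minus MEFs the median was -0.049, with values from -1.24 to 2.09. Many of these probe sets measure the same mRNAs, so they are not independent of each other.

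Of snoRNAs in hosts that have no probe set of their own, 4 are given here. Snord35a and Snord33 lie within Rpl13a, Snora7a within Rpl32 and Snora69 within Rpl39. In iMEFs the late effect was 1.69 for Snord35a (SE 0.26, adjusted p = 0.0366), 1.66 for Snord33 (SE 0.25, adjusted p = 0.0338) and 1.08 for Snora7a (SE 0.16, adjusted p = 0.0338) in limma with Benjamini-Hochberg adjustment, and Snora69 at 1.39 (SE 0.42, adjusted p = 0.107) did not pass. In MEFs the values were 0.37 for Snord35a, 0.42 for Snord33, 0.25 for Snora7a and 0.16 for Snora69.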
